A study of Mus musculus with 4 samples.

Results

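The promoters described here are those of 675 protein-coding genes where ATAC-seq peaks were called in the pair of SMC lines but in none of the non-SMC lines, out of 21755 protein-coding genes on chromosomes 1 to 19 and X of the mouse (mm10). A promoter was a 6 kb window with the transcription start site (TSS) in its middle, taken as the 5′ end of the gene in GENCODE release M21, and a single base of overlap with a peak was enough. The members were selected on the presence and absence of peaks in these same 4 libraries, so the presence of peaks in SMC and their absence in non-SMC is the definition of the set and not a result. The 675 genes are 3.10% of those examined and are called SMC-only promoters. By the opposite rule 538 promoters were non-SMC-only, which is 2.47%, and 10693 had a peak in all 4 libraries.

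The SMC lines are cultured small cell lung cancer (SCLC) cells with high NCAM and low or no CD44 on their surface, and the non-SMC lines are cells with low NCAM and high CD44. Both were sorted from primary lung tumors of the *RP* mouse, in which floxed alleles of *Rb1* and *Trp53* (Rb1 L/L, Trp53 L/L) are deleted after viral Cre is given to the lung, on a mixed C57Bl/6, Balb-c and S129 background. All were untreated, all carry the same deletions, and each of the 4 libraries (SMC lines 1 and 2, non-SMC lines 1 and 2) is a separate line. Each line stands for its type only as far as 2 cultured lines can, and the age of the mice when the tumors were taken is not given in the sources used here. With 2 lines per type the smallest p of an exact two-sided permutation test is 0.333, so the types were compared without a test. Nothing in the labels says whether lines came from separate mice.

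ATAC-seq reads open chromatin through the places where a transposase can cut DNA. The promoter of an active gene is usually free of nucleosomes around its TSS, and many promoters rich in CpG stay open in most cell types whether or not the gene is transcribed. Promoters that are open in few cell types tend to be poor in CpG and to belong to genes of a single lineage. SCLC is a neuroendocrine cancer, and its classic form expresses genes that neurons and hormone-secreting cells share, such as granins and synaptic vesicle proteins. Proneural factors of the bHLH family bind the E-box, a short motif that begins with CA and ends with TG.

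The strongest SMC-only promoters are shown first, because they carry the largest signal of the set. The stretches of 120 bases come from strong members whose highest peaks overlap between the SMC lines, with each peak taken once. They are from the GRCm38 assembly (mm10), on the strand of the gene and 5′ to 3′. They are the stretches nearest to the midpoint of the summits of both SMC lines that overlap no annotated exon, and each lies within the highest peak of both lines. Capitals mark the E-box CAGGTG, its reverse complement, and the E-box whose letters are CAGCTG.
Iapp, chr6:142298260-142298379, plus strand, 163 to 44 bp upstream of the TSS: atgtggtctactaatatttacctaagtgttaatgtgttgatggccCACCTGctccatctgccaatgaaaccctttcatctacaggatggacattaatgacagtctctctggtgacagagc
Tmsb15l, chrX:136976875-136976994, minus strand, ending 6 bp upstream: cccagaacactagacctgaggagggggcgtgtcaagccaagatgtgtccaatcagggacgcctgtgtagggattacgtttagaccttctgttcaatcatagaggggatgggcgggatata
Scn9a, chr2:66634963-66635082, minus strand, 120 to 1 bp upstream: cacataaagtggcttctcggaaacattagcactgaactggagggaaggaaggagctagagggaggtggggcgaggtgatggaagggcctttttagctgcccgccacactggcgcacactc
Scg3, chr9:75684057-75684176, minus strand, 120 to 1 bp upstream: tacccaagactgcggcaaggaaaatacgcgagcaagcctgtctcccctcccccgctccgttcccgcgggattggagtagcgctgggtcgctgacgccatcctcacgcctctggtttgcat
Frmd3, chr4:74013322-74013441, plus strand, 120 to 1 bp upstream: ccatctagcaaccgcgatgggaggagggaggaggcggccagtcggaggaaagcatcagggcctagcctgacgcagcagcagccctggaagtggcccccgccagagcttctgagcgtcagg
1700113H08Rik, chr10:87058412-87058531, plus strand, 367 to 486 bp downstream in an intron: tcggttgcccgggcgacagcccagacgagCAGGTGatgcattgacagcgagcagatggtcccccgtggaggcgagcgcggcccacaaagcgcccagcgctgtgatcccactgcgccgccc
Arhgef38, chr3:133234974-133235093, minus strand, 144 to 25 bp upstream: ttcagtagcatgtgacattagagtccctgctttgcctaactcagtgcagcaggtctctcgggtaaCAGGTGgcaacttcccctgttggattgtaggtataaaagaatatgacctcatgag
Of these stretches, those of *Iapp*, *1700113H08Rik* and *Arhgef38* hold a marked E-box and the other four hold none. The *Scg3* and *1700113H08Rik* stretches hold 11 and 13 CpG dinucleotides, whereas that of *Iapp* holds 0 and that of *Arhgef38* holds 1.

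The libraries differed in depth, which limits what the absence of a peak can mean. The authors called peaks in each library on its own, with between 91118 peaks in SMC line 1 and 154039 in SMC line 2. The lowest background, a stand-in for depth recovered for each library from the enrichments and p-values, was 0.456 and 1.54 fragments in the SMC lines and 1.49 and 0.639 fragments in the non-SMC lines, each pair in the order of lines 1 and 2. At that background the weakest listed peak had a pileup of 5 fragments and a fold enrichment of 2.41 in non-SMC line 1, and 3 fragments and 2.44 in non-SMC line 2. A promoter without a peak there was below about this level or not separable from a raised local background, and openness of a smaller size was not detectable. Fold enrichment depends on the depth of its own library, so each peak was also given its percentile, its place in the list of its own library ordered by fold enrichment, with 100 as the highest.

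The sorted identity of the lines was checked on markers of both cell types. Of 10 neuroendocrine markers, 9 and 10 had a promoter peak in the SMC lines and 7 and 5 in the non-SMC lines. *Cd44*, the sort marker of non-SMC, had no promoter peak in SMC line 1, a peak at the 43.1 percentile in SMC line 2 and peaks at the 94.4 and 98.4 percentiles in the non-SMC lines. *Ncam1* had a peak in all 4. Of 10 mesenchymal markers, 7 to 9 had a peak in each library, so these lists do not separate the types by presence alone. Of the 5 immune markers, SMC line 1 had a peak at 0 and each other library at 2. Among the members were 2 neuroendocrine markers, among them *Chga*, and 0 mesenchymal, immune, endothelial or alveolar ones. General epithelial genes were not on these lists. *Epcam*, whose protein the study also stained in its flow cytometry of the tumors, was a member. Its highest peaks overlapped and were at the 93.4 and 93.5 percentile in SMC lines 1 and 2.

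Most SMC-only promoters carried a modest peak. The highest peak in the window had a median fold enrichment of 3.93 in SMC line 1 (range 2.13 to 15.7) and 3.77 in SMC line 2 (2.05 to 17.7), built from a median pileup of 6 and 11 fragments. Its median percentile was 64.9 and 72.9, against 86.5 and 90.1 at the promoters with a peak in all 4 libraries, where the median pileup was 10 and 22 fragments. A q-value under 0.05 in both lines was reached by 321 members (47.6%), and 133 (19.7%) reached it in neither. A −log10 q of at least 5 in both lines was reached by 113 members (16.7%), which is 0.519% of all genes. These values describe the lists from which the members were drawn and are not evidence of a difference from non-SMC. A single peak in both lines was the commonest arrangement, with 281 members, and 18 had 3 or more peaks in both.

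The 12 strongest members by mean percentile included *Iapp*, *Rbbp8*, the neighbors *Tmsb15l*, *Tmsb15b1* and *Tmsb15b2*, *Scn9a*, *Scg3*, *Frmd3*, *1700113H08Rik*, *Arhgef38* and *Fgf12*. *Iapp*, which encodes amylin, a peptide hormone of pancreatic beta cells, led with a fold enrichment of 15.7 in SMC line 1 and 14.4 in SMC line 2 (99.9 and 99.6 percentile). Its summits lay 126 and 80 bp upstream of the TSS, and the non-SMC peaks nearest to the TSS were 8468 and 8504 bp away. *Scg3*, a granin that sorts hormones into dense-core granules, had 9.77 and 17.0 fold enrichment, with the summits 13 bp upstream and 2 bp downstream of the TSS and the nearest non-SMC peaks 57486 and 11495 bp away. *Scn9a*, the sodium channel Nav1.7 of sensory neurons, had 10.8 and 12.4. *Rbbp8*, which encodes the DNA end-resection factor CtIP, had 14.3 and 14.4, with non-SMC line 1 showing a peak 3323 bp from the TSS, just beyond the window. In these members the peaks of both lines overlapped.

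At the other end, *Itgb4*, *Sohlh1* and *Oxct2b* had the lowest mean percentiles, at 4.25, 2.83 and 2.2. Their highest peaks did not overlap between the SMC lines. *Oxct2b* lay where the local background was 42.6 times the lowest of SMC line 1 and 42.0 times that of SMC line 2, so that its pileups of 46 and 143 fragments gave a fold enrichment of only 2.3 and 2.19. A local background of at least 5 times the lowest was found under the highest peak of 7 members in at least 1 SMC line (*Nxnl1*, *Celf3*, *Dusp15*, *Pabpc4*, *Oxct2a*, *Ccm2l* and *Oxct2b*), and the other 668 had less. The edge of the window also set membership. The members closest to it were *Rbfox3*, *Tmem235* and *Asb18*, with a non-SMC peak 3006, 3008 and 3010 bp from the TSS, while *Kcne4*, *1700012A03Rik* and *Gm19935* fell just outside the set with a non-SMC peak at 2992, 2991 and 2982 bp.

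**Figure D1:**
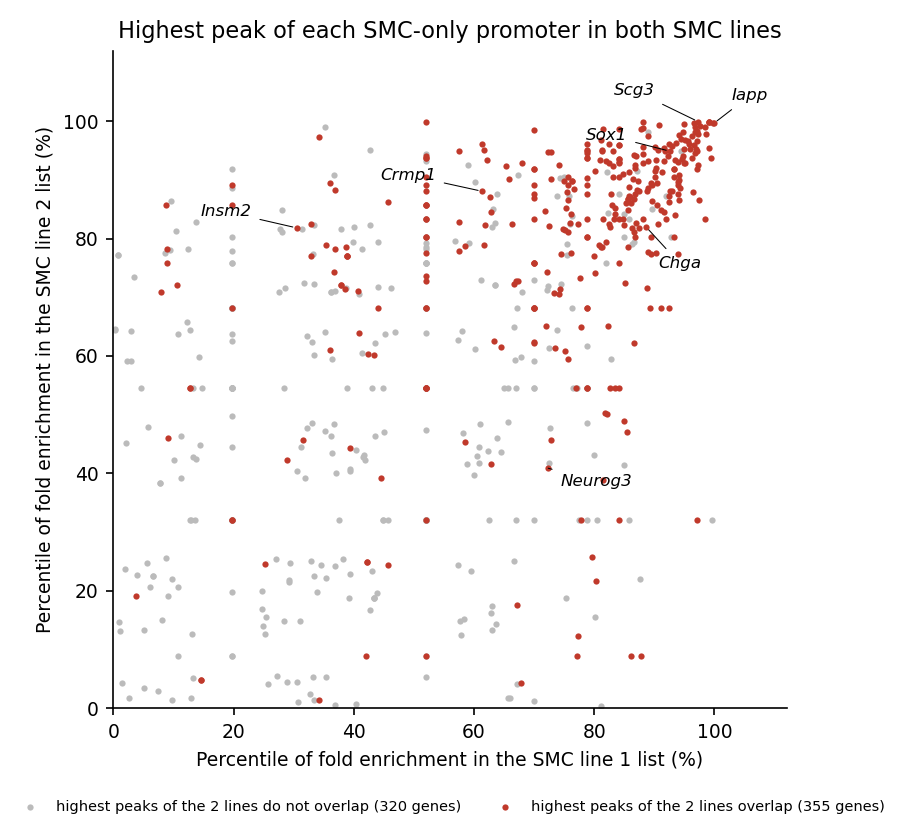
Percentile of fold enrichment of the highest peak of each of the 675 SMC-only promoters, in the list of SMC line 1 (x axis, %) and of SMC line 2 (y axis, %), 1 point per gene. Red points are the 355 promoters where the highest peaks of both lines overlap, and these fill the upper right corner, while the weak promoters are mostly grey; columns of points are genes with the same fold enrichment because pileups are whole numbers.

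The SMC lines had to share the promoter but not the position of the peak, which the rule left free. The highest peaks of both lines overlapped at 355 of the 675 members (52.6%), and any peaks overlapped at 442 (65.5%), so at 233 promoters (34.5%) no called peaks of the lines overlapped. At non-SMC-only promoters the highest peaks of both non-SMC lines overlapped at 334 of 538 (62.1%), and at promoters open in all 4 libraries those of the SMC lines overlapped at 8947 of 10693 (83.7%). Agreement went with strength. With the members ordered by mean percentile and cut into 4 equal parts, 23 of the lowest 169 promoters had overlapping highest peaks (13.6%), then 54 of 169 (32.0%), then 120 of 169 (71.0%), and 158 of the highest 168 (94.0%). Among the 113 members with a −log10 q of at least 5 in both lines it was 108 (95.6%). Where the highest peaks overlapped, their summits lay a median of 58 bp apart.

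Position relative to the TSS was also free within the window. The summit lay within 250 bp of the TSS at 34.8% of members in SMC line 1 and 36.0% in SMC line 2, compared with 61.8% and 64.5% at promoters open in all 4 libraries and 26.2% and 23.2% at non-SMC-only promoters in the non-SMC lines. A distance of 2 kb or more was seen in 17.6% and 16.7% of members, against 5.52% and 5.32% of the promoters open in all libraries. By annotation, the summit was upstream of the gene in 293 members in SMC line 1 and 300 in SMC line 2, in an exon of the gene in 196 and 189, and in an intron in 175 and 174. At 26 members (3.85%) the TSS of another protein-coding gene lay closer to the strongest peak than their own.

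**Figure D2:**
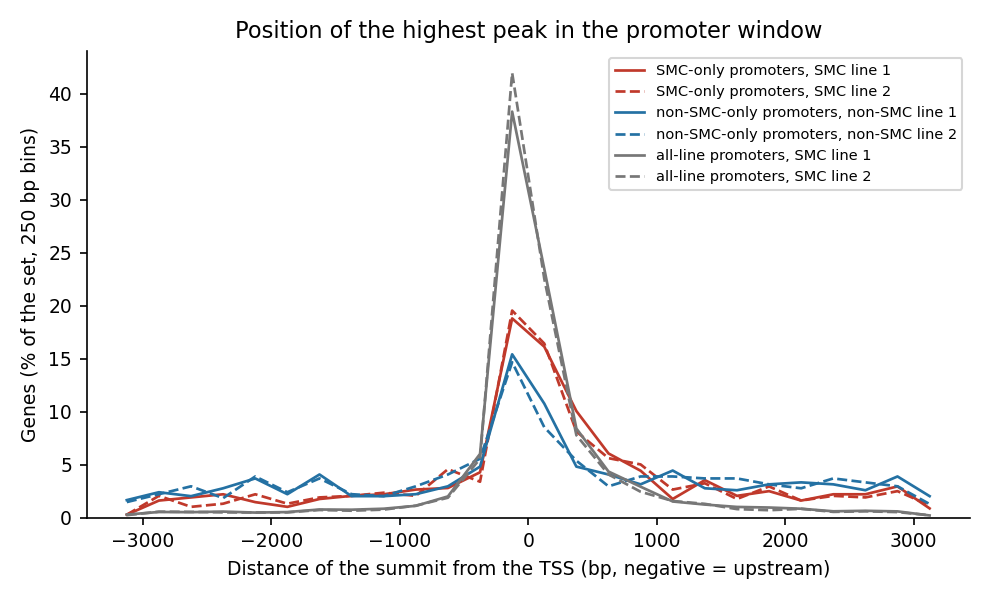
Distance of the summit of the highest peak from the TSS (x axis, bp, negative upstream, 250 bp bins) against the share of genes (y axis, %) for SMC-only promoters in both SMC lines (red), non-SMC-only promoters in both non-SMC lines (blue) and promoters open in all 4 libraries, in the SMC lines (grey). All curves peak at the TSS, and the red curves lie between the grey and the blue ones there.

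SMC-only promoters were mostly poor in CpG. The ratio of observed to expected CpG in the 300 bases around the TSS was at least 0.6 in 183 members (27.1%), with a median of 0.390. The share was 16.2% at non-SMC-only promoters, 72.6% at promoters open in all libraries, 4.27% at promoters without a peak in any library and 44.7% over all genes. The CpG-rich members, which include *Scg3* (ratio 0.789), *Chga* (0.783), *Atoh1* (0.840) and *Dnajc6* (0.974), had a median mean percentile of 68.6 and overlapping highest peaks in 54.6%. The CpG-poor members had 63.7 and 51.8%. The genes behind the members had a median length of 23.6 kb, and the 113 strongest had 49.3 kb. The median was 15 kb for non-SMC-only promoters, 23.8 kb for all-line promoters and 17.4 kb for all genes.

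Genes of the nervous system and of neuroendocrine cells were common among the members. Sorted by symbol into 34 classes, 76 members (11.3%) fell into at least 1 of the 9 neural classes, compared with 20 of 538 non-SMC-only genes (3.72%), 231 of 10693 all-line genes (2.16%) and 738 of all 21755 (3.39%). Seen from the classes, 10.3% of the 738 neural genes were SMC-only and 2.71% were non-SMC-only, beside 3.10% and 2.47% of all genes. In the 113 members with strong peaks in both lines the neural share was 15.9%. The neural members had a median mean percentile of 73.0 and overlapping highest peaks in 46 of 76 (60.5%), and the others had 64.5 and 309 of 599 (51.6%). These classes were drawn up with earlier results of these libraries known, and no enrichment test was made.

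**Figure D3:**
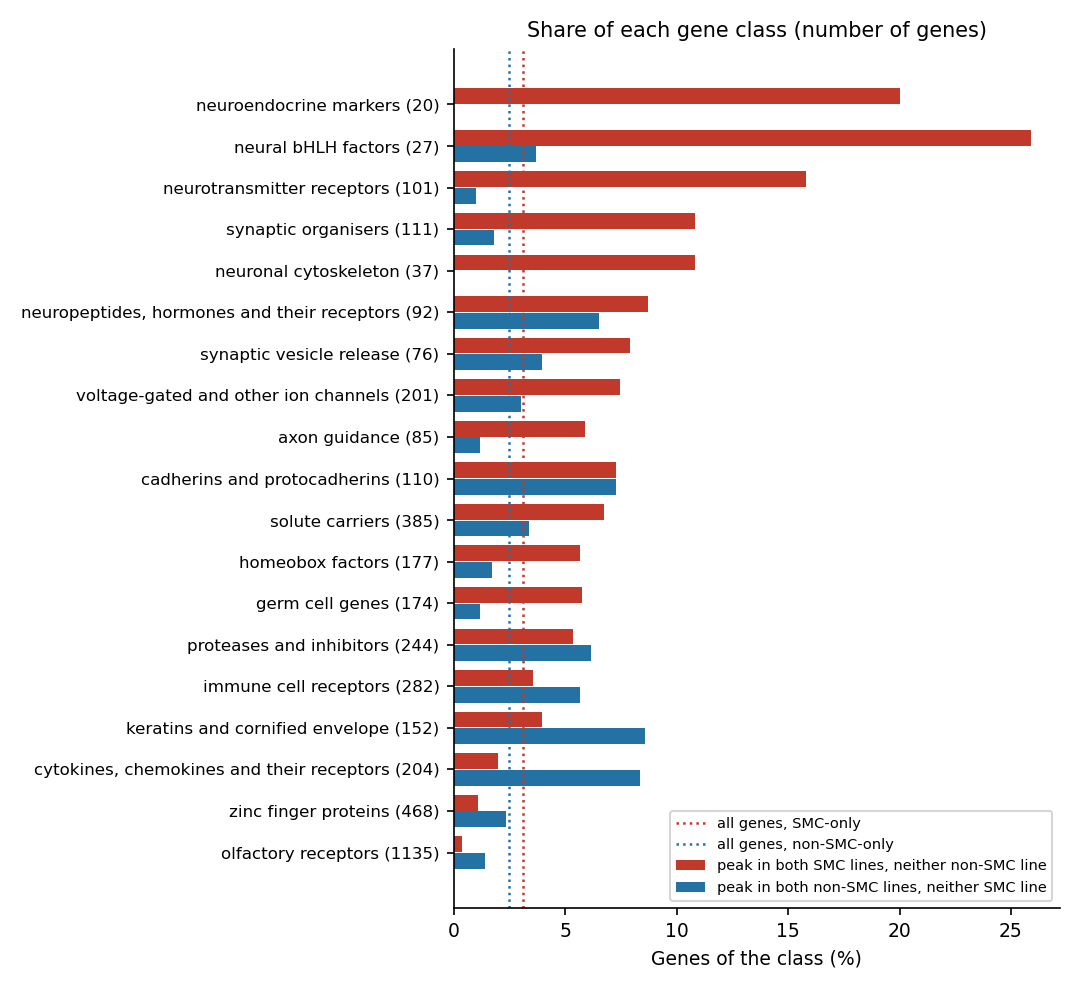
Share of the genes of each of 19 classes (x axis, %; class size in parentheses) that were SMC-only (red) or non-SMC-only (blue), with the share over all genes as dotted lines. Among the classes plotted, the red bars are longest for neural bHLH factors (25.9%) and neuroendocrine markers (4 of 20 genes), and the blue bars are longer than the red ones for keratins, cytokines, immune cell receptors, proteases, zinc finger proteins and olfactory receptors.

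Among 20 neuroendocrine markers, 4 were members and 0 were non-SMC-only. *Scg3* is described above. *Chga*, which encodes chromogranin A, the granin used in diagnosis, had a fold enrichment of 6.22 in SMC line 1 and 4.54 in SMC line 2 (88.6 and 82.0 percentile) at the same site, 937 and 927 bp upstream of the TSS. The non-SMC lines had their nearest peaks 6002 and 6842 bp away. *Dnajc6*, which encodes the clathrin uncoating factor auxilin of nerve terminals, had 4.61 and 4.79.

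The class of neural bHLH factors, which holds proneural factors that start neuronal differentiation and also the zinc finger factors *Myt1l* and *Insm2*, gave 7 members out of 27 genes, with 1 non-SMC-only. The strongest was *Myt1l*, which keeps non-neuronal genes silent in neurons, with a fold enrichment of 7.09 and 5.51 at sites 2057 and 663 bp upstream of the TSS. *Atoh7*, the factor of retinal ganglion cells, had 5.95 and 5.52 at overlapping sites 752 and 728 bp downstream. *Atoh1*, needed for hair cells and for secretory cells of the gut, had 5.24 and 6.6, and *Neurog3*, which specifies the endocrine cells of the pancreas, had 4.18 and 2.86. *Neurog1* had 3.47 and 3.36, and *Insm2*, a relative of the neuroendocrine factor INSM1, had 2.94 and 4.5. In SMC line 1 the −log10 q was 1.24 for *Neurog1* and 0.63 for *Insm2*, so neither reached a q under 0.05 there. The highest peaks of the SMC lines overlapped at *Neurog3* and *Insm2* but not at *Myt1l*, *Atoh1* and *Neurog1*. Along the whole gene with its flanks, *Atoh7*, *Atoh1*, *Neurog3* and *Insm2* had no peak in either non-SMC line, where the flanks were 3 kb on each side. That span includes the promoter window, which the rule keeps free of non-SMC peaks, so this absence is partly the definition of the set.

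The study ranked 10 transcription factors at the top of its SMC network from RNA-seq and these ATAC-seq data, so the list is not independent of the libraries. Of these 2 were members, among them *Sox1*, and the other 8 had a promoter peak in all 4 libraries. *Sox1*, a factor of neural progenitors, had a fold enrichment of 7.39 in SMC line 1 and 8.04 in SMC line 2, with summits 208 and 203 bp downstream of the TSS. Along the gene with its flanks it had 6 and 3 peaks, of which 4 and 2 lay in the promoter window. The non-SMC lines had none there, which the rule already requires of the window. Homeobox genes gave 10 members out of 177 (5.65%), among them *Barx2* (5.14 and 4.73) and *Rax* (3.71 and 8.87).

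Receptors and channels made up much of the neural share. Among neurotransmitter receptor genes 16 were members (15.8% of the class) and 1 was non-SMC-only. Of these 16 members, 1 had a −log10 q of at least 5 in both SMC lines, a level reached by 16.7% of all members. Among the strongest were *Grin3a*, an NMDA receptor subunit, with 6.00 and 4.66, and *Htr3a*, the serotonin-gated channel, with 6.71 and 4.03. The class spans glutamate receptors (*Grik1*, *Grik2*, *Grin2b*, *Grm3*, *Grm5*), acetylcholine receptors (*Chrm2*, *Chrna4*, *Chrna5*, *Chrnd*) and receptors for serotonin and adrenaline. The weakest, *Adra2c*, was at the 7.39 and 2.84 percentile at sites on opposite sides of the TSS. *Chrnd*, of the muscle endplate, and *Gabrp*, of epithelia, are known for roles outside neurons. Of 201 ion channel genes 15 were members (7.46%) and 6 were non-SMC-only. Of these 15 members, 4 had a −log10 q of at least 5 in both SMC lines. *Kcnh7* (6.91 and 6.6) and *Scn1a* (6.70 and 6.76) followed *Scn9a*, and *Scn3a* was also a member, so the sodium channel cluster of chromosome 2 gave 3. *Kcnq1* and *Trpm5*, which work mainly in heart and epithelia, are neighbors on chromosome 7.

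Genes of the synapse were also more often SMC-only than non-SMC-only. Synaptic organizers gave 12 members out of 111 (10.8%) and 2 non-SMC-only genes. *Cntnap2*, a neurexin relative that clusters potassium channels on axons, had a fold enrichment of 9.56 and 8.11. *Nrxn3*, a presynaptic neurexin, had 6.82 and 8.25 with the summits 7 and 35 bp upstream of the TSS, and *Nsg2*, a protein of neuronal endosomes, had 7.94 and 6.37. Synaptic vesicle genes gave 6 members out of 76 (7.89%) and 3 non-SMC-only genes. *Synpr*, a synaptophysin relative, had 6.16 and 11.8, *Ppfia2*, a scaffold of the release site, had 5.21 and 7.25, and *Cadps2*, which primes dense-core vesicles, had 5.54 and 4.79 at sites that did not overlap.

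Axon guidance genes gave 5 members out of 85 (5.88%), led by the semaphorin *Sema4f* (5.49 and 11.6), the ephrin receptor *Epha6* (6.01 and 7.65) and *Crmp1* (3.72 and 5.58), a mediator of semaphorin signals. Neuronal cytoskeleton and RNA-binding genes gave 4 of 37, namely *Celf3* (7.07 and 8.05), *Elavl4* (6.69 and 6.64), *Ina* (3.12 and 3.58) and *Rbfox3* (2.96 and 2.97), and 0 were non-SMC-only. The highest peaks of *Ina* did not overlap between the SMC lines and also lay in the window of the member *Nt5c2*. In SMC line 1 the −log10 q of *Ina* was 0.881, so a q under 0.05 was not reached there. *Elavl4* encodes HuD, an autoantigen of patients with SCLC. Neuropeptides, hormones and their receptors gave 8 of 92, close to the 6 that were non-SMC-only. After *Iapp* the strongest were the receptors *Galr1* for galanin (3.84 and 4.67) and *Avpr1a* for vasopressin (3.43 and 3.94), neither with overlapping highest peaks.

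Outside the neural classes, solute carriers gave the most members of any class of named genes, with 26 members of 385 (6.75%) against 13 non-SMC-only. *Slco6c1* (8.24 and 13.8) and *Slco4c1* (7.87 and 10.2), both organic anion transporters, are neighbors on chromosome 1. Cadherins gave 8 members of 110 (7.27%) and as many non-SMC-only genes. The desmosomal cadherin *Dsg2* (8.98 and 10.1), *Pcdhb1* (9.42 and 7.88) and *Cdh20* (8.98 and 7.49) led it. *Cdh1*, E-cadherin of epithelia, was also a member, with 6.09 and 5.58 fold enrichment and the nearest non-SMC peaks 5054 and 5083 bp away. Orphan and adhesion G protein-coupled receptors gave 8 of 137 (5.84%), led by *Adgrb3*, *Gpr6* and *Gpr83*, and germ cell genes gave 10 of 174 (5.75%), led by *Spag6l*, *Spata46* and *Tex15*.

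Signaling proteins of the WNT, TGF-beta, FGF and Notch families gave 7 of 124, with *Fgf12* (9.60 and 11.1), an intracellular partner of sodium channels, and *Fgf21*, a metabolic hormone, first. Xenobiotic enzymes gave 11 of 228, led by *Aldh1a7* (9.59 and 9.13), *Akr1cl* and *Cyp7a1*, the rate-limiting enzyme of bile acid synthesis. Proteases gave 13 of 244 and 15 non-SMC-only genes, with the transmembrane proteases *Tmprss4* and *Tmprss13* and with *Adamtsl1* in front. Collagens, integrins and laminins gave 6 of 86, of which the strongest, *Lama4*, had 4.12 and 3.55, and *Col22a1* and *Col9a1* followed.

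Several other classes leaned to non-SMC. Cytokines and their receptors gave 4 SMC-only (*Il1rapl2*, *Il19* and *Cxcr5* first) and 17 non-SMC-only genes of 204, immune cell receptors 10 (*Cd55b*, *H2-Q6* and *Ly6g5b* first) and 16 of 282, and keratins 6 (*Krtap17-1*, *Krt4* and *Krtap5-1* first) and 13 of 152. *Il1rapl2* sits in this class by its name and encodes a synaptic adhesion protein. Zinc finger proteins gave 5 of 468 (1.07%), with *Zbtb32*, *Zim1* and *Zfp345* first, and 319 of the class were open in all libraries. Olfactory receptors gave 4 of 1135 (0.352%), with *Olfr763*, *Olfr520* and *Olfr543* first, and vomeronasal receptors 0 of 329 against 16 and 6 non-SMC-only. Ribosomal proteins (182) and histones (82) gave 0 members, and 147 and 64 of them were open in all libraries. Defensins and related secreted proteins gave 3 of 106 (*Lyz1*, *Bpifb2* and *Wfdc16*). Gene models without a proper name did not lean to non-SMC, with 72 SMC-only and 53 non-SMC-only genes. They made up 10.7% of members, beside 9.38% of all genes, with *1700113H08Rik*, *Gm10837* and *Gm26727* the strongest. The 388 members that belonged to no class were 2.75% of such genes, beside 3.10% of all genes.

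Peaks along the rest of the gene were not used to choose the members, apart from peaks that cross the edge of the window. Peaks were counted here by their summit, so a peak that crosses the edge can count in both places. In SMC line 1 the peak of *Akr1cl*, with its summit 3012 bp downstream of the TSS, did so. Non-SMC peaks that cross the edge are barred from members by the rule but not from all genes, and their part in the shares below was not tested. Among genes that extend at least 10 kb beyond the promoter window, 426 members could be compared by the number of peaks between the window and the end of the gene. Both SMC lines had more peaks than both non-SMC lines in 108 of them (25.4%), compared with 11.1% of all 12576 such genes. The reverse was seen in 22 (5.16%), compared with 13.8%. In neural members of this length the counts were 19 (34.5%) and 3 (5.45%) of 55, and in the other members 89 (24.0%) and 19 (5.12%) of 371. The neural members had more peaks in every library, with medians of 5 and 11 in the SMC lines and 3 and 6 in the non-SMC lines. In the other members the medians were 2 and 4, and 2 and 2. The part of peak number in the neural share was not tested. The members had a mean of 5.12 and 8.94 peaks in the SMC lines and 3.72 and 4.96 in the non-SMC lines, where all genes of this length had 3.17, 5.40, 4.10 and 4.45. These counts follow the depth of each library, so the shares over all genes are the reference for them.

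Several large neuronal genes among the named members had more peaks in the SMC lines. *Nrxn3* had 58 and 89 peaks beyond its promoter in SMC lines 1 and 2 and 14 in each non-SMC line. *Cntnap2* had 44 and 87 against 18 and 15, and *Myt1l* had 20 and 45 against 3 and 13. *Dnajc6* had 10 and 12 against 1 and 1, *Elavl4* 7 and 10 against 0 and 1, and *Scg3* 1 and 5 against 0 and 0. Other members did not follow. *Rbfox3*, a neuronal splicing factor, had 38 and 53 peaks against 41 and 28. *Scn9a* had 2 and 7 peaks against 7 and 9, and *Sema4f* had 0 and 2 against 3 and 3. For *Rbbp8* the numbers were 1 and 2 against 4 and 3, so its SMC-only promoter stood in a gene with more non-SMC than SMC peaks. Over the whole gene and 3 kb on each side, 191 members (28.3%) had no peak in either non-SMC line, and 454 (67.3%) had none with a −log10 q of at least 5. That span includes the promoter window, which the rule keeps free of non-SMC peaks, and the same shares over all genes were not counted. Beyond the window, in genes with at least 10 kb there, 12.4% of members and 13.9% of all genes had no non-SMC peak.

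**Figure D4:**
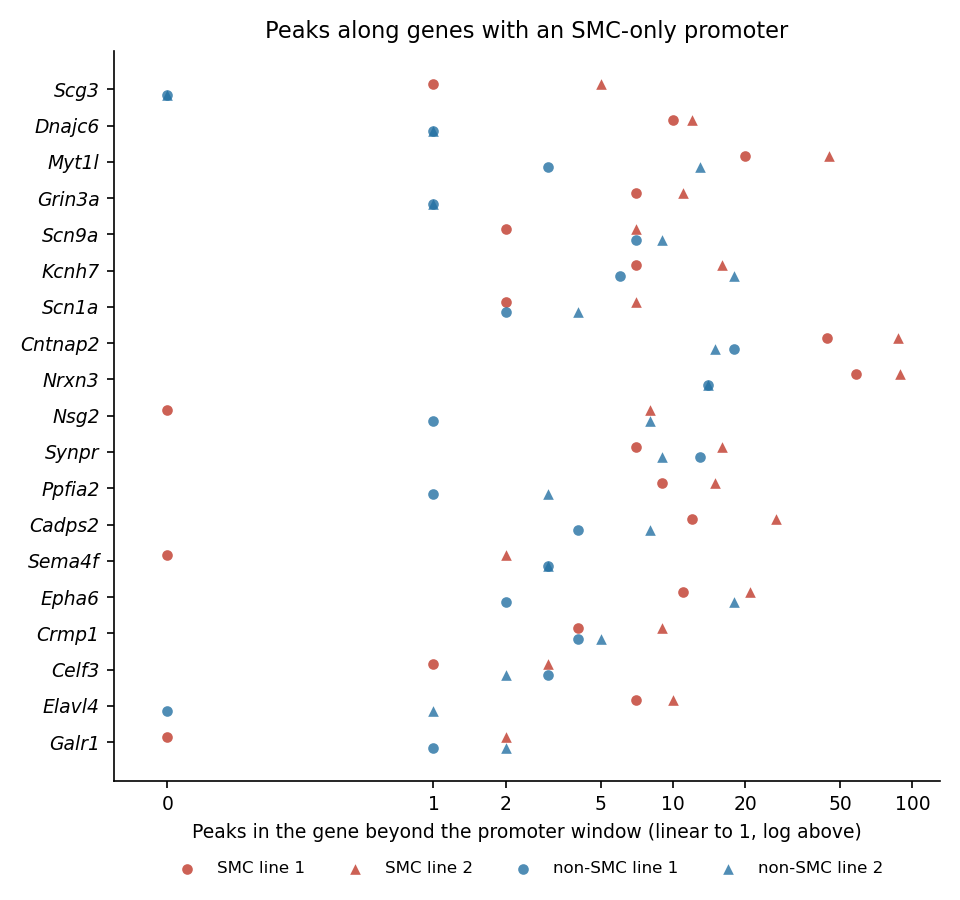
Number of peaks between the promoter window and the end of the gene (x axis, linear to 1 and logarithmic above) in each of the 4 libraries for named members of the neural classes that extend at least 10 kb beyond the window. In *Nrxn3*, *Cntnap2*, *Myt1l*, *Grin3a*, *Dnajc6*, *Elavl4* and *Scg3* both SMC lines (red) lie above both non-SMC lines (blue), and in *Sema4f* the order is the reverse.

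The surroundings of the members held more peaks than those of all genes in the SMC lines and fewer in the non-SMC lines. On the downstream side they can overlap the part of the gene counted above. From 3 to 13 kb on either side of the TSS the members had 1.17 and 1.12 times the mean number of peaks of all genes in SMC lines 1 and 2, and 0.826 and 0.952 times in non-SMC lines 1 and 2. From 13 to 53 kb the ratios were 1.11, 1.11, 0.866 and 0.911. For non-SMC-only promoters the ratios at 3 to 13 kb were 0.896 and 0.913 in the SMC lines and 1.24 and 1.19 in the non-SMC lines. The nearest non-SMC peak lay a median of 7.25 kb from the TSS of a member, within 10 kb at 437 members (64.7%) and beyond 50 kb at 32.

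The motifs under the summits differed between the sets. Motifs were searched on both strands in the 201 bases centred on the summit of the strongest peak, and each site was counted once. The E-box CAGGTG was present at 205 of 655 SMC-only sites (31.3%), 49 of 520 non-SMC-only sites (9.42%), 1154 of 9277 sites open in all libraries (12.4%) and 2439 of 16012 promoter sites with a peak in any library (15.2%). The E-box CAGCTG, which is its own reverse complement, was present at 18%, 14.6%, 11.5% and 13.0% of these sites. E-boxes are bound by proneural factors with their E-protein partners, and CAGGTG is also the site of the ZEB and SNAIL zinc finger repressors. The AP-1 site TGACTCA went the other way, with 15 SMC-only sites (2.29%), 160 non-SMC-only sites (30.8%), 5.13% of all-line sites and 7.18% of all sites. SOX motifs (ACAAAG or ACAATG) were present at 20.5%, 104 of 520, 12.3% and 15.9%, and the TEAD core GGAATG at 10.1%, 13.5%, 7.46% and 8.84%. The mean GC content of the windows was 56.9% at SMC-only, 50.6% at non-SMC-only, 62.9% at all-line and 59.4% at all sites, and its part in these shares was not tested. A match is a string of letters in the window and was not tied to the binding of a factor.

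**Figure D5:**
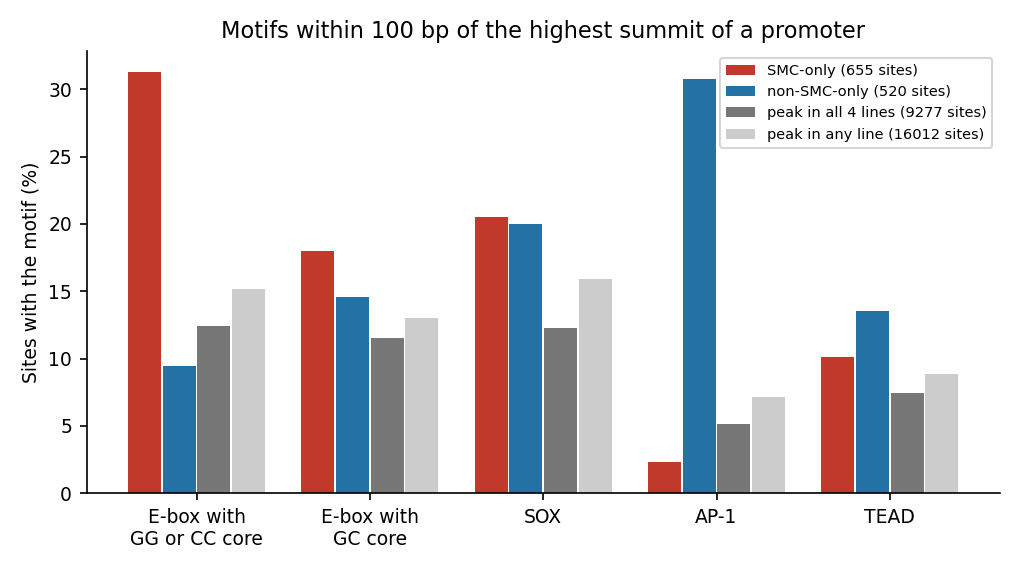
Share of promoter sites (y axis, %) with each motif within 100 bp of the summit for SMC-only, non-SMC-only and all-line promoters and for promoters with a peak in any line (number of sites in the key). The bar for SMC-only sites is highest for the E-box CAGGTG (left group, 31.3%), and the bar for non-SMC-only sites is highest for AP-1 (30.8%).

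The share of sites with CAGGTG was close between neural and other members and between CpG classes, and it was higher where peaks were strong and overlapped. It was present at 30.3% of neural and 31.4% of other member sites, at 31.3% of CpG-rich and 31.5% of CpG-poor ones, and at 32.4% of summits within 250 bp of the TSS and 30.6% of those farther away. It was present in 37.2% of the 164 sites of the strongest of the 4 parts by mean percentile and 27.5% of the 160 sites of the weakest. The second weakest part had 25.6% and the second strongest 34.7%, and the other sets were not split by strength. Where the highest peaks of both SMC lines overlapped it was present at 35.2% of sites, and elsewhere at 27.0%. The window held 3 or more copies at 10 members, among them *Cdh1*, *Kcnq1*, *Htr1a*, *Misp* and *Tmem30b*, which had 4. The sequences of *Tmem30b* and *Cdh1* are given because they hold the motif several times within 120 bases outside exons, and they were chosen after their values were seen.
Tmem30b, chr12:73546496-73546615, GRCm38, minus strand, 223 to 104 bp upstream of the TSS: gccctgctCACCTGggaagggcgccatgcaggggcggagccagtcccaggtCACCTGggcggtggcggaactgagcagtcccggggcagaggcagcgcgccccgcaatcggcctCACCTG
Cdh1, chr8:106603224-106603343, GRCm38, plus strand, 127 to 8 bp upstream of the TSS: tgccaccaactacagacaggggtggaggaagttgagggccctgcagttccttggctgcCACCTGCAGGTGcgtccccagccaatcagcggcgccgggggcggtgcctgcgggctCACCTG
Each stretch holds 3 copies. *Tmem30b*, a subunit of lipid flippases, had a fold enrichment of 3.48 in SMC line 1 and 4.07 in SMC line 2.

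A peak could lie in the windows of several genes, so 675 genes are not 675 independent openings. In all, 39 members (5.78%) shared a peak with another member, in 18 groups. Counting each group once leaves 654 separate promoters. In 13 groups the genes lay on opposite strands, with TSSs spread over 65 to 3343 bp, and 5 groups lay on a single strand. Whether genes on opposite strands point away from each other was not tested. In 17 groups the genes shared a peak in each SMC line, though not always at overlapping positions, as for *Cdhr5* and *Sct*. A further count, of members whose SMC peak also lay in the window of a gene that is no member, gave 16 (2.37%).

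There were 3 groups of 3 genes and 15 pairs. *Tmsb15b2*, *Tmsb15l* and *Tmsb15b1* encode the thymosin beta 15 proteins, small actin-binding peptides, and their TSSs lie within 1377 bp on the minus strand of chromosome X. They shared a peak of 12 fold enrichment in SMC line 1 and 17.7 in SMC line 2 (99.1 and 99.9 percentile), and 3 of the 12 strongest members are thus the same opening. The genes are near copies of each other, so reads there may also have been placed with some uncertainty. *Gm26657*, *Actl7b* and *Actl7a* on chromosome 4, of which *Actl7b* and *Actl7a* are actin-related genes of the testis, shared peaks of 3.20 and 3.95. *Apoc2*, *Gm44805* and *Apoc4* of the apolipoprotein cluster on chromosome 7 shared peaks of 3.33 and 2.59.

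Among the pairs the strongest were *Gm7694* with *Spata46* (5.49 and 7.42), *Fgf21* with *Fut1* (5.70 and 5.34) and *AI661453* with *1700001C19Rik* (4.63 and 6.09). They were followed by *Cdhr5* with *Sct*, the gene of the gut hormone secretin (3.85 and 3.70), *Henmt1* with *Gm9857* (3.43 and 3.94) and *Gm21964* with *Gm17720* (3.17 and 3.70). A shared peak cannot be given to 1 gene of a group by these data. Runs of adjacent members, which include groups that share a peak, numbered 55, of which 48 held 2 genes and 7 held 3. *Unc79*, *Prima1* and *Fam181a* formed a run over 362 kb of chromosome 12, and *Tub*, *Ric3* and *Lmo1* a run over 225 kb of chromosome 7.

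The members were unevenly spread over the chromosomes. They made up 5.13% of the genes of chromosome 12, 5.00% of chromosome 10, 4.68% of chromosome 18 and 4.67% of chromosome 4, and 0.947% of chromosome 17. Non-SMC-only promoters made up 0.622% of the genes on chromosome 12, 0.686% on chromosome 10 and 3.03% on chromosome 17. They made up 3.51% on chromosome 18 and 1.96% on chromosome 4. The peak lists leaned the same way on chromosomes 4, 10 and 12, but not on chromosome 18. Chromosome 12 held 4.15% and 4.26% of the peaks of SMC lines 1 and 2 and 2.41% and 2.95% of those of non-SMC lines 1 and 2, and chromosome 10 held 4.61% and 5.06% against 3.36% and 3.33%. Chromosome 4 held 6.92% and 5.93% against 4.86% and 4.63%, and chromosome 18 held 3.31% and 3.44% against 3.83% and 3.68%. Chromosome 17 held 4.15% and 4.39% against 4.81% and 4.44%. Chromosome 7 had 78 members, 3.86% of its genes, and 1.63% were non-SMC-only. It held 5.89% and 5.81% of the peaks against 3.39% and 5.26%. On chromosome X 3.59% of genes were SMC-only and 1.05% non-SMC-only. The SMC lines differed from each other there, with 4.2% of the peaks of line 1 and 1.29% of those of line 2. The non-SMC lines had 2.43% and 2.08%. Whether the number of copies of these chromosomes differs between the lines was not tested. *Atoh7* and *Neurog3* lie on chromosome 10, and *Chga*, *Myt1l*, *Insm2*, *Nrxn3* and *Tmem30b* lie on chromosome 12.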

How the data were processed

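ATAC-seq libraries of 2 SMC and 2 non-SMC lines were each deposited by the authors as 1 list of peaks. Per the labels and the methods of the study, reads were mapped to mm10 with Bowtie2 2.3.4, duplicates were removed, and peaks were called with MACS2 2.1.1, with settings not given in the sources used here. The fold enrichment deposited by the authors is a ratio, which sets the fragments piled up at a summit over those of its surroundings. The deposited p-values and q-values are given as −log10, with a largest p of 0.01. The deposited offset of the summit from the start of the peak, in bases, was used for positions.

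Peaks on chromosomes 1 to 19 and X were matched to GENCODE M21 genes and the GRCm38 sequence. Pileup and background were recovered from fold enrichment and p, which failed for 3 to 5 peaks in each library. The deposited score and strand columns were not used. The named genes were the 12 members of highest mean percentile, the 3 highest in every class with at least 3 members, all members among neuroendocrine markers, neural bHLH factors and SMC network factors, the groups of 3 and 6 strongest pairs sharing a peak, the 3 weakest members and 3 genes on each side of the window edge. Genes named outside this rule (*Cdh1*, *Epcam*, *Nt5c2*, *Tmem30b*, other class members, the members with many E-boxes and the runs of neighbors) were chosen after their values were seen. Some genes that the rule names are not reported here. The members and lists were chosen with earlier results of these data known. CpG content was counted from 250 bases before to 50 after the TSS. Overlap and recovery steps were tested on simulated data. Alternatives are given at the end. The lines were numbered by their labels. Python 3.11.15, numpy 2.4.6, pandas 2.3.3, scipy 1.17.1, matplotlib 3.10.9 and bedtools 2.31.1 were used.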

Additional observations from a re-analysis of the deposited data

How the results depend on the processing

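Membership depends on the 4 lists and on where the window ends. With a −log10 q of at least 5 for every peak, 357 promoters were SMC-only, of which 113 were among the 675, because promoters with a weak non-SMC peak enter and those with weak SMC peaks leave. Leaving out 1 line gave between 1044 and 1500 promoters, since a rule with 1 condition fewer admits more genes. They were 1500 without SMC line 1, 1044 without SMC line 2, 1428 without non-SMC line 1 and 1183 without non-SMC line 2. The other alternatives gave between 553 and 783 promoters, of which the windows of 2 kb and 1 kb kept 436 and 350 of the 675.

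The share in neural classes was 14.8% at a −log10 q of at least 5 and 14.7% with 2 kb windows, and between 7.87% and 10.8% with 1 line left out (7.87% without SMC line 1). The share of CpG-rich promoters was 40.9% at that q, 34.2% and 37.6% with windows of 2 kb and 1 kb, and between 19.5% and 36.1% with 1 line left out. The share with overlapping highest peaks was 92.2% at that q, 59.6% with equally long lists of the strongest peaks, 67.7%, 78.1% and 48.3% with windows of 2, 1 and 10 kb and 46.8% with the TSS of every transcript, and it was 51.5% and 53.6% without a non-SMC line. The share of members sharing a peak was 3.74%, 2.65% and 8.90% with windows of 2, 1 and 10 kb, and between 4.99% and 7.77% without a non-SMC line and 4.87% and 5.46% without an SMC line. The cause of these shifts in the shares was not tested. Leaving out the 7 members on a raised local background, an alternative added after the data were seen, left 668 promoters, with 11.2% neural, 27.4% CpG-rich, 52.8% with overlapping highest peaks and 5.84% sharing a peak. No paired analysis was possible because the results come from no test.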
